A study of Mus musculus with 9 samples.

Results

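Short lincRNA regions are stretches of the genome between genes, under 10000 bases long, from which the array measured long noncoding RNA. The array named each one by chromosome, start and end on the mm9 build and by strand, F for forward and R for reverse. A region was a member when at least 1 of its 60-base probes lay well above background, by the scanner software's mark, on all 6 deletion arrays or on control replicates 1 and 3, and it was then read through the probe with the highest mean over the authors' 9 columns of values. This gave 1333 members among the 2199 short regions, 4607 lincRNA regions and 36315 genes and regions of the array. Members were chosen by these measured values, detection and level, so neither is a result here. The comparison of the deletions with each other was not itself part of the rule, which treated their 6 arrays alike. The rule still bears on it: regions above background with 1 deletion only were left out unless the controls admitted them.

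RNA came from mouse LSK cells (lineage marker-, Sca1+, cKit+), a bone marrow population enriched for stem and early progenitor cells of the blood. All groups came from female mice that carried Gt(ROSA)26Sor CreERT2, a Cre recombinase expressed from the broadly active Rosa26 locus and switched on by tamoxifen, so the controls had the Cre and the drug as well. The controls had no floxed gene named in their labels, the second group was Drosha fl/fl and the third Dicer fl/fl, with 3 repeats each. All cells were cultured for 72 h at 50000 per well in 50 µL, with 250 nM 4OH-tamoxifen, 10 ng/mL each of IL-3 and IL-6, 50 ng/mL of SCF and 10% serum. No age is given, and the labels do not say that repeats came from separate animals, so p-values measure only the spread between these samples. In bulk RNA, fewer cells of a type and less RNA per cell cannot be told apart.

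Long intergenic noncoding RNAs are transcripts that lie between protein-coding genes and are not translated into a known protein; many are present at low levels. Some long noncoding transcripts are microRNA precursors: in the nucleus the enzyme Drosha, with its partner Dgcr8, cuts a hairpin out of such a primary transcript, and Dicer later trims that hairpin in the cytoplasm to the mature microRNA. Drosha therefore acts on the primary transcript itself and Dicer on the piece that has left it. Setting the deletions side by side addresses what the loss of Drosha does that the loss of Dicer does not, as far as both were lost to a like degree.

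The probes below are from short regions that lay between the same pair of protein-coding genes as a microRNA gene. Of such regions, they were the highest in Drosha-deleted against Dicer-deleted cells. Each name gives the pair of genes. A region of such a gap that was lower, Ppp1r36-Plekhg3 (−2.12 on the log2 scale), is printed further below. Capitals mark the hexamer AATAAA, a signal for the 3′ end of transcripts, which only the second Zfat-Khdrbs3 probe held.
Klf14-Mkln1 region (chr6:31007262-31007321, R strand): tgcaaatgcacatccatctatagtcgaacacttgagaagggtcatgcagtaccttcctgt
Zfat-Khdrbs3 region (chr15:68170987-68171046, R strand): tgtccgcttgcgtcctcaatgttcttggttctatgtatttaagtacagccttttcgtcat
Zfat-Khdrbs3 region, second probe (chr15:68170867-68170926, R strand): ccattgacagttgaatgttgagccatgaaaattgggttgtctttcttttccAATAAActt
Hprt-Plac1 region (chrX:50408238-50408297, R strand): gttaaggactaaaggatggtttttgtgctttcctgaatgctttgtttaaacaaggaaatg
Slitrk5-Gpc5 region (chr14:115445828-115445887, F strand): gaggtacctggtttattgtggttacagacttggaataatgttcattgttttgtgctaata
Nr5a2-Ptprc region (chr1:139857084-139857143, F strand): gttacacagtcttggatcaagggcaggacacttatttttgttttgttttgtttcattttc
Nr5a2-Ptprc region, neighbour (chr1:139848095-139848154, F strand): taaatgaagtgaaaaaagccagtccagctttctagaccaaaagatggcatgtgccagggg
Dipk2b-Chst7 region (chrX:18814850-18814909, R strand): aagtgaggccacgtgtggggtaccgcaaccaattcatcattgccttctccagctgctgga

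The mature microRNAs below come from genes in these gaps, with the seed, bases 2 to 8, in capitals. Their sequences are those of the RefSeq table on GRCm38.p6. They are shown because the regions lie in the same gaps as their genes. Other genes of these gaps are not shown, such as Mir18, Mir351 and Mir542. The table did not hold the sequences of Mir30b and Mir30d. By seed those shown form the groups miR-29a with miR-29b, miR-181a with miR-181b, miR-221 with miR-222 and miR-17 with miR-20a. Among those shown, miR-19b, miR-322 and miR-503 each had a seed of their own.
mmu-miR-29a-3p: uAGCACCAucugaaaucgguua
mmu-miR-29b-3p: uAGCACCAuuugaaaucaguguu
mmu-miR-181a-5p: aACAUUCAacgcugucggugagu
mmu-miR-181b-5p: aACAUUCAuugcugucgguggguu
mmu-miR-221-3p: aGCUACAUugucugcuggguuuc
mmu-miR-222-3p: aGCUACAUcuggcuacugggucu
mmu-miR-17-5p: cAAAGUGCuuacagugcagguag
mmu-miR-20a-5p: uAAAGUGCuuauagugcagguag
mmu-miR-19b-3p: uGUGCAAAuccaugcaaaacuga
mmu-miR-322-5p: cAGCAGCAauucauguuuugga
mmu-miR-503-5p: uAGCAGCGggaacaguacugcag

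Control replicate 2 stood apart: the scanner software called 18.9% of spots non-uniform there, 93.2% of its probes lay well above background against 54.2% to 62.3% on the other arrays, and its median signal was 529 against 31.0 to 53.8. The test of scanner values used the 8 other arrays, and that of the authors' values all 9 columns. Including it shifted the all-feature median against controls to 0.28 log2 units (Drosha-deleted) and 0.29 (Dicer-deleted). Control replicate 3, with the lowest share of probes above background, was the only array of its slide. Drosha RNA stood at 2.85 and 3.02 in control replicates 1 and 3, at −0.48, −0.26 and 0.22 in Drosha-deleted cells and at 2.85, 3.13 and 2.76 in Dicer-deleted cells. These and all levels below are log2 signals from which the 75th percentile of the array was subtracted, unless the authors' values are named. Dicer1 stood at 0.87 and 1.55 in controls, at 1.45, 0.91 and 1.74 in Drosha-deleted and at −0.11, 0.05 and −0.24 in Dicer-deleted cells. Drosha fell in Drosha-deleted against Dicer-deleted cells (limma adjusted p = 0.0123), and Dicer1 had its lowest values on the Dicer-deleted arrays (−1.31 against controls, limma adjusted p = 0.309). Against controls Drosha differed by −3.11 in Drosha-deleted cells, so the measured falls were unequal. The part of this in the differences between the deletions was not tested.

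Of 9 LSK and progenitor markers, all but Mecom were well above background on the 8 arrays, with Kit between 2.75 and 3.83 and Cd34 between 5.55 and 6.37. Mecom was above background on 4 of the 8 and stood between −6.59 and −4.17. Myeloid markers were also present after the culture. The 8 neutrophil markers summed to 10.45 to 10.72 (log2) on control arrays, 10.44 to 10.96 on Drosha-deleted and 9.41 to 10.83 on Dicer-deleted arrays. Of the 9 measured monocyte and macrophage markers, the sums were 6.93 to 7.08, 6.44 to 6.73 and 6.66 to 7.10, and the list's median was −0.61 for Drosha-deleted minus Dicer-deleted. The 6 measured dendritic cell markers had a median of 0.72, with sums of 7.59 to 7.90, 7.57 to 7.76 and 7.40 to 7.64. No marker of these lists passed limma's test in that comparison, the lymphoid markers Ebf1 and Pax5 and the dendritic marker Xcr1 were not well above background, and the part of cell makeup in the results was not tested.

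Between Drosha-deleted and Dicer-deleted cells, few short regions differed, and those that passed the test as higher in Drosha-deleted cells shared a gap between genes with a microRNA gene. With the scanner values 1 member rose and none fell by limma's test at an adjusted p of 0.05, where 0.0261% of 23030 features were higher and 0.00868% lower. With the authors' values 3 members rose and none fell, against 0.0521% and 0.00434% of 23036 features. At an unadjusted p under 0.05, 17 members were higher and 36 lower with the scanner values (1.28% and 2.7%, beside 2.59% and 1.9% of all features). With the authors' values they were 21 and 33 (1.58% and 2.48%, beside 3.23% and 2.42%). The median difference was 0.03 over members and −0.01 over all features. All 3 Drosha-deleted arrays lay above all 3 Dicer-deleted arrays for 108 of 1332 members with a value on every array (8.11%, beside 7.8% of all features), and below them for 71 (5.33%, beside 7.1%). In the authors' values these shares were 7.65% beside 8.63% and 4.65% beside 6.78%. These shares lie near those of all features and are no result about short regions. Low counts of members are in part built in. The rule left out 85 short regions above background in 1 deletion group only, while all features include such ones.

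Past 1 log2 unit, which is a 2-fold difference, lay 21 members, 12 higher and 9 lower in Drosha-deleted cells; that was 1.58% of members beside 1.96% of all features. The 21 were picked by a large difference between these same arrays, so separate arrays are in part built in. The share with separate arrays among all features past 1 unit was not counted, so the counts below are a description only. Of the 12 higher, 6 lay in a gap with a microRNA gene, as did 170 of all 1333 members. With the flanking genes placed otherwise, as given below, these were 5 and 147. In all 6 the Drosha-deleted arrays lay above every Dicer-deleted array. Of these 6, 1 had been detected on the controls only. In the other 6 the arrays overlapped, and 5 of these had been detected on the controls only. Of the 9 lower, 1 lay in a gap with a microRNA gene and its arrays were separate, as they were in 4 of the remaining 8. The region in the gap had been detected on the controls only, as had 6 of the other 8. In the plot of both sources of values, the 4 highest regions of the authors' values are all in such gaps.

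**Figure D1:**
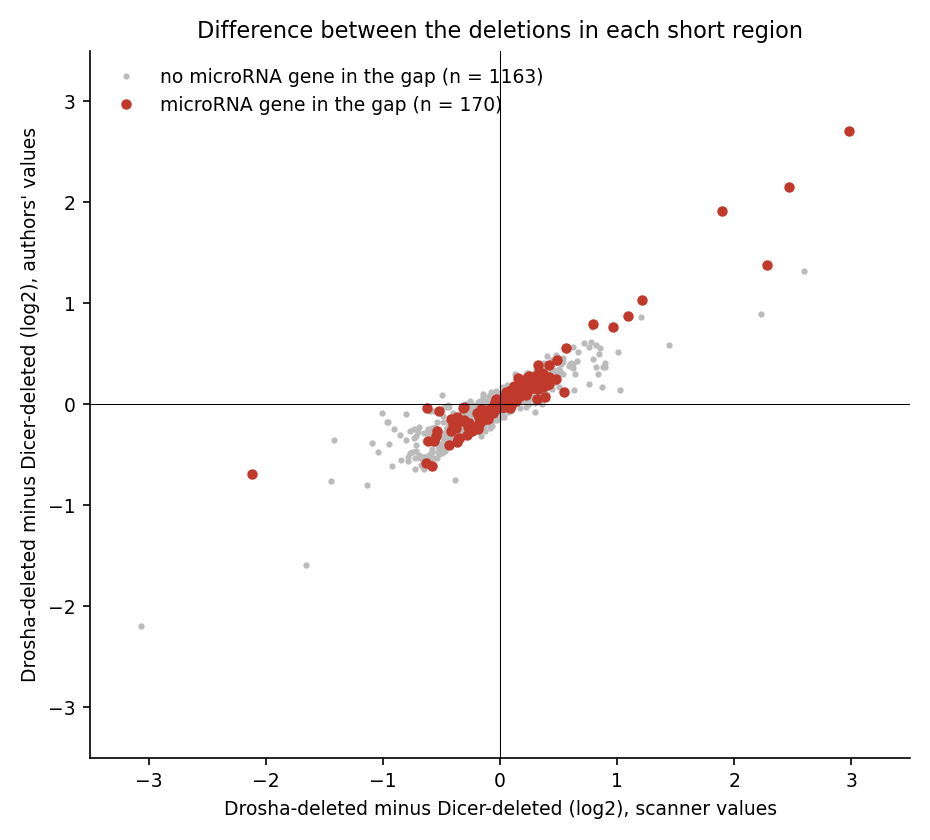
Each point is 1 of 1333 short regions, with the log2 difference Drosha-deleted minus Dicer-deleted from the scanner values (horizontal) and from the authors' values (vertical). Red points share a pair of flanking protein-coding genes with a microRNA gene (n = 170), grey points do not (n = 1163); the 4 points that are highest on the vertical axis are red and lie between 1.89 and 2.98 on the horizontal one.

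The pairing with microRNA genes used gene order only. A region counted when its neighbouring named protein-coding genes on mm9 were the same pair that flanks a microRNA gene in the RefSeq order of GRCm38.p6, with the genes placed 1000 bases inside their 3′ end. This inset was chosen after values were seen. It gave 170 members, and with the genes placed at the end itself 147, of which 5 lay past 1 unit upward and none downward. A shared gap is not closeness: the gaps named here were 48.5 to 4264 kb long. The median difference between the deletions was 0.10 for the 170 members, 0.01 for the 1163 others and −0.01 for all features. By strand, 84 members lay on the strand of the microRNA gene (median 0.12, 5 past 1 unit), 53 on the opposite strand (median 0.09, none past 1 unit upward and 1 downward), 16 in gaps with microRNA genes on both strands and 17 in gaps whose microRNA strand the table did not hold. In 6 gaps a member lay past 1 unit upward, and these gaps held 13 members in all.

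The largest rise was in the Klf14-Mkln1 gap on chromosome 6, which holds the genes of miR-29a and miR-29b-1. Region chr6:31007184-31007725, on the R strand and the strand of those genes, lies 101.3 kb from the probe of Klf14, a transcription factor gene, and 435.2 kb from that of Mkln1, a gene of an intracellular adaptor protein. Its level was −1.39 and −0.59 in controls, 1.93, 1.17 and 1.65 in Drosha-deleted cells and −1.47, −1.73 and −1.0 in Dicer-deleted cells. The Drosha-deleted arrays stood apart from both other groups, which overlapped. On control replicate 2, left out, it was at −2.22. The means were −0.99 ± 0.57 (SD, n = 2), 1.58 ± 0.38 (SD, n = 3) and −1.40 ± 0.37 (SD, n = 3). Drosha-deleted cells were higher than Dicer-deleted cells by 2.98 (SE 0.31), 7.92-fold, with a limma adjusted p = 0.0462, and by 2.71 in the authors' values with a limma adjusted p = 0.0145. The adjusted p lay between 0.00682 and 0.243 over 27 alternatives, 10 of which kept the call. Leaving out any 1 of the 8 arrays ended the scanner call (limma adjusted p = 0.0564 to 0.243) while the difference stayed between 2.81 and 3.19. Against controls it was 2.57 higher, short of the threshold with a limma adjusted p = 0.0875, and 2.37 higher in the authors' values, where it rose with a limma adjusted p = 0.0170. That call was lost without the authors' column of control replicate 2 (2.42, limma adjusted p = 0.0835). Dicer-deleted cells differed from controls by −0.41, with a limma adjusted p = 0.646.

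The region's other probes gave like values. The 3 probes, all detected, had Drosha-deleted minus Dicer-deleted differences of 3.04, 2.98 and 2.36. Other members of the same gap did not share them. The region chr6:31001656-31002219, also on the R strand and just beside it, differed by 0.36 between the deletions, being 1.5 above controls with Drosha deleted and 1.15 with Dicer deleted; it had been detected on the deletion arrays only. Regions chr6:31078802-31079644 on the R strand and chr6:31233512-31241062 on the F strand differed by −0.63 and −0.43. None of these 3 passed limma's test in any comparison with either source.

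The Zfat-Khdrbs3 gap on chromosome 15 holds the microRNA genes Mir30b and Mir30d, whose strand was not in the table. Region chr15:68170864-68171544 on the R strand lies between Zfat, a zinc finger gene, and Khdrbs3, a gene of an RNA-binding protein. It stood at −1.99 and −2.46 in controls, 0.70, 0.31 and 0.30 in Drosha-deleted cells and −2.79, −1.71 and −1.59 in Dicer-deleted cells. Again only the Drosha-deleted arrays were high, and the 2 other groups overlapped. Drosha-deleted cells were 2.47 (SE 0.33) above Dicer-deleted cells, 5.52-fold, with a limma adjusted p = 0.109, and 2.15 above in the authors' values, where the region rose with a limma adjusted p = 0.0171. Against controls the difference was 2.66 (limma adjusted p = 0.101) and, in the authors' values, a rise of 2.16 (limma adjusted p = 0.0139). Over 27 alternatives the adjusted p between the deletions ran from 0.00225 to 0.449, and 6 made the call. The second probe printed above, which holds AATAAA near its end, differed by 3.86. The third, above background on the 3 Drosha-deleted arrays alone, differed by 4.11 on the measured scale, where the other groups have only a bound.

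The Hprt-Plac1 gap on the X chromosome is the shortest, 48.5 kb, and holds the genes of miR-322, miR-351, the miR-450 group, miR-503 and miR-542. Region chrX:50407969-50410370 on the R strand, that of the microRNA genes, also holds a probe named C430049B03Rik. Hprt is a gene of purine salvage and Plac1 one known from placenta. The region stood at −4.31 and −3.67 in controls, −1.71, −2.25 and −2.19 in Drosha-deleted cells and −4.55, −4.58 and −3.87 in Dicer-deleted cells. The Drosha-deleted arrays were separate from the rest, and 1 of 3 Dicer-deleted arrays was above background. The region met the detection rule through the controls only. The difference on the measured scale was 2.28 (SE 0.28), with a limma adjusted p = 0.0691, and 1.38 in the authors' values, a rise with a limma adjusted p = 0.0392. The call was made in 3 of 26 alternatives, with adjusted p from 0.0256 to 0.339. The probe C430049B03Rik differed by 1.54 between the deletions. The region's other probes differed by 2.13 and 2.27 on the measured scale, with 1 and 0 of the 3 Dicer-deleted arrays above background, and the first of them was below the detection rule.

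The Slitrk5-Gpc5 gap on chromosome 14 holds the miR-17 to miR-92 cluster, a group of microRNAs made from one transcript and known for promoting growth of blood cells. Region chr14:115443612-115445950 on the F strand contains a probe of Mir17hg, the host transcript of that cluster. It was at 1.01 and 2.35 in controls, 3.27, 3.13 and 3.55 in Drosha-deleted cells and 1.60, 1.42 and 1.25 in Dicer-deleted cells. Every Drosha-deleted array lay above the other 5, and the controls spread more widely than the Dicer-deleted arrays. The region was 1.89 (SE 0.33) higher than in Dicer-deleted cells, 3.72-fold, with a limma adjusted p = 0.273, and 1.91 in the authors' values, with a limma adjusted p = 0.0625, so it did not pass in either source. It passed in 2 of 27 alternatives, both with fewer of the authors' control columns, and its adjusted p ranged from 0.00776 to 1.0. Against controls it was 1.64 higher (limma adjusted p = 0.225). The Mir17hg probe differed by 1.87 between the deletions, and the region's 3 probes by 1.96, 1.81 and 1.89.

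The Nr5a2-Ptprc gap on chromosome 1 holds the genes of miR-181a-1 and miR-181b-1, and Ptprc encodes the leukocyte antigen CD45. Region chr1:139856545-139857204 on the F strand stood at −2.66 and −2.35 in controls, −1.11, −1.85 and −0.89 in Drosha-deleted cells and −2.52, −2.60 and −2.38 in Dicer-deleted cells. Of the 8 arrays in the test the 3 Drosha-deleted ones were the highest, replicate 2 less so. On control replicate 2, left out, the region was at −0.87, above all 3 of them. The difference between the deletions was 1.22 (SE 0.26) with a limma adjusted p = 0.405, and 1.03 in the authors' values with a limma adjusted p = 0.313. The neighbour chr1:139847592-139848243 on the same strand was at −3.43 and −3.55, then −1.86, −2.66 and −1.79, then −3.44, −2.66 and −3.09. Its Drosha-deleted replicate 2 and Dicer-deleted replicate 2 were at nearly the same level. Its difference was 0.96 (limma adjusted p = 0.763), and 1.46 and 1.62 on its other probes. The remaining members of the gap, chr1:139795171-139796306, chr1:139806645-139809498 and chr1:139822286-139822985, all on the F strand, differed by 0.14, −0.17 and −0.12.

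The Dipk2b-Chst7 gap on the X chromosome holds the genes of miR-221 and miR-222. Region chrX:18810088-18814982 on the R strand was at −2.36 and −2.39 in controls, −1.25, −1.77 and −1.11 in Drosha-deleted cells and −2.55, −2.38 and −2.48 in Dicer-deleted cells. Its groups of control and Dicer-deleted arrays overlapped, and the Drosha-deleted arrays lay above both. The difference was 1.09 (SE 0.20), 2.13-fold, with a limma adjusted p = 0.323, and 0.87 in the authors' values with a limma adjusted p = 0.239. Its other probes differed by 2.18 and 1.58. Between the deletions, neither this region nor chr1:139856545-139857204 nor chr1:139847592-139848243 passed limma's test under any of 27 alternatives. With the flanking genes placed at their 3′ end itself, this region no longer counted as sharing a gap with a microRNA gene.

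**Figure D2:**
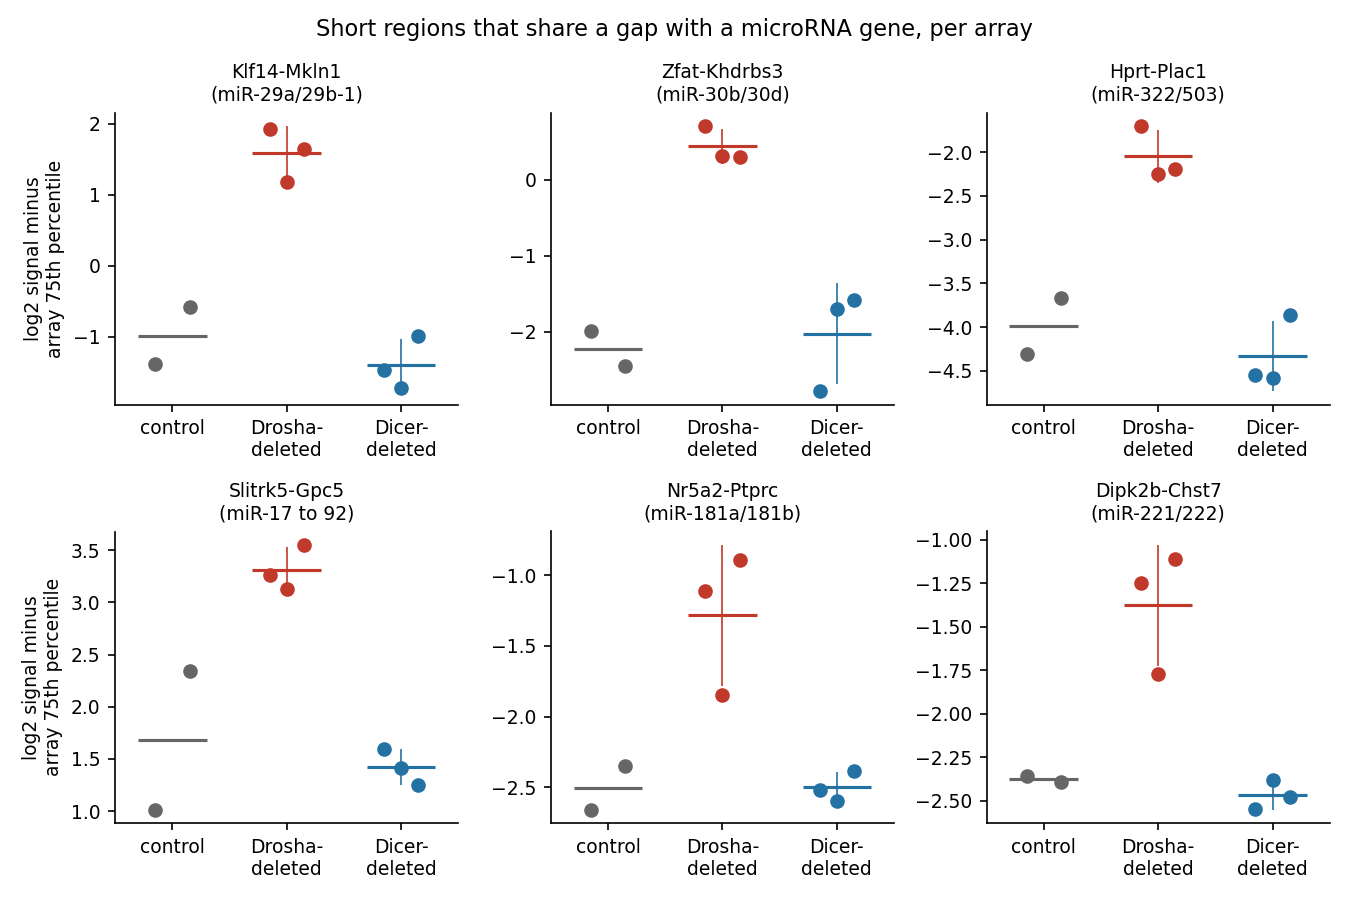
Level of 6 short regions that share a gap with a microRNA gene, on the log2 scale with the 75th percentile of the array subtracted. Each point is 1 array (controls 1 and 3, 3 Drosha-deleted, 3 Dicer-deleted), horizontal lines are means and vertical lines SD for groups of 3; each panel has its own axis. In every panel the Drosha-deleted arrays lie above all others shown, as for Klf14-Mkln1 with 1.17 to 1.93 against −1.73 to −0.59.

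The following members from gaps with a microRNA gene differed less than those above. The first 2 given were chosen after their values were seen. Region chr16:84707202-84707748 on the F strand, in the Ncam2-Mrpl39 gap with the gene of miR-155, a microRNA of immune activation, differed by 0.41 between the deletions (limma adjusted p = 1.0). It stood at −4.10 and −4.45 in controls, −3.74, −4.03 and −3.48 with Drosha deleted and −3.55, −4.41 and −4.50 with Dicer deleted, so the groups overlapped. The 4 further members of that gap differed by 0.15 to 0.24. Region chr15:85421725-85424047 on the F strand, in the Wnt7b-Ppara gap with let-7 genes, also differed by 0.41 (limma adjusted p = 1.0). It stood at −1.16 and −2.64 in controls, −0.34, −0.49 and −0.35 with Drosha deleted and −0.65, −0.56 and −1.22 with Dicer deleted. The 1 further member of that gap differed by −0.07. Region chr13:28537223-28539860 on the R strand, in the Prl5a1-Sox4 gap with the gene Mir6368, differed by 0.80 between the deletions, with Dicer-deleted arrays from −1.0 to 0.72 and Drosha-deleted arrays from 0.73 to 0.91. A pair of dim members, chr2:67720599-67723538 on the F strand and chr8:26347473-26348052 on the R strand, each differed by −0.62. The gap of the first holds Mir6335 and Mir7224, and that of the second Mir8108.

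The host transcripts of microRNAs, from a list of 18 of which 16 were measured, had a median difference of 0.22 between the deletions. By limma's test 1 of 16 was higher and none lower with the scanner values, and 2 of 16 higher with the authors' values. Of all features 0.0261% and 0.0521% were higher. The list was chosen with earlier results of these data known, so these counts are no independent support. Aopep rose by 2.22 with a limma adjusted p = 0.0123, and Mir22hg was 2.17 higher with a limma adjusted p = 0.0691, a rise in the authors' values (1.92, limma adjusted p = 0.0273). Among 8 microRNA processing genes 1, Drosha itself, fell, and in the authors' values Dgcr8, which encodes Drosha's partner, also rose (1.60, limma adjusted p = 0.0166; 1.59 with the scanner values, limma adjusted p = 0.109).

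One probe of a short region lies inside a microRNA hairpin. Region chr3:65463150-65463487 on the F strand has a probe all of whose 60 bases, shown in capitals, match the 139-base hairpin of Mir8120 in the RefSeq table on GRCm38.p6. It is printed because it is the only probe of any member that matched a hairpin over 24 bases or more.
Tiparp-Lekr1 region, hairpin probe (chr3:65463234-65463293, F strand): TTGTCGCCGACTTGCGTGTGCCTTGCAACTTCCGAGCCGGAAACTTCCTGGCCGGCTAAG

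This hairpin probe was at −6.11 and −6.03 in controls, −4.93, −5.21 and −6.82 with Drosha deleted and −5.98, −4.99 and −5.43 with Dicer deleted, with overlapping groups and a difference between the deletions of −0.18. The region's own probe, outside the hairpin, stood at −0.72 and −2.17, then −0.81, −0.77 and −1.23, then −1.53, −1.16 and −0.68, with a difference of 0.18 (limma adjusted p = 1.0).

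The one short region that fell against controls with the scanner values was chr12:77550684-77551505 on the F strand, between Ppp1r36 and Plekhg3. The microRNA gene in its gap, Mir5135, lies on the opposite strand. That pairing held only with the flanking genes placed 1000 bases inside their 3′ end, and not at the end itself. The region met the detection rule through the controls alone, so part of its fall can follow from how members were chosen, and with probes above background on all 8 arrays the count of calls was 0. Its single probe is printed here because both sources made this call.
Ppp1r36-Plekhg3 region (chr12:77551052-77551111, F strand): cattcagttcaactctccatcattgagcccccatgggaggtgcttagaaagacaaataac

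The region was at −2.31 and −1.49 in controls, −6.15, −5.48 and −5.38 in Drosha-deleted cells and −3.27, −3.75 and −3.64 in Dicer-deleted cells. The 3 groups did not overlap: controls were highest, Dicer-deleted arrays between, and none of the 3 Drosha-deleted arrays was well above background. On the scanner scale Drosha-deleted cells were at least 7.15-fold lower than controls and at least 2.28-fold lower than Dicer-deleted cells. The size depends on the source: in the authors' values the region was 3.76-fold lower than controls and 1.61-fold lower than Dicer-deleted cells, both smaller than these bounds. The bounds set the brighter group's mean against, on each dim array, the higher of the probe's own signal and the lowest signal of any probe well above background. The fitted difference from controls was −3.77 (SE 0.33) with a limma adjusted p = 0.0125, and −1.91 in the authors' values with a limma adjusted p = 0.0110. The call held in 19 of 26 alternatives, with adjusted p from 0.000173 to 0.144. These alternatives read the same region, admitted through the controls, so the tally is no independent support. The call was not stable over them. The call was lost without Drosha-deleted replicate 2 (−3.86, limma adjusted p = 0.0759) and, in the authors' values, without Drosha-deleted replicate 1 (−1.90, limma adjusted p = 0.0676) or 2 (−1.98, limma adjusted p = 0.0601) or without control replicate 2 (−1.96, limma adjusted p = 0.0599). It was also lost with normexp background (−1.35, limma adjusted p = 0.0501) and quantile normalization (−3.86, limma adjusted p = 0.0557). Between the deletions the difference was −2.12 with a limma adjusted p = 0.129, and −0.69 in the authors' values with a limma adjusted p = 0.494, and for Dicer-deleted cells against controls −1.65 with a limma adjusted p = 0.283.

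Against controls, Drosha-deleted cells had 0 members higher and 1 lower by limma's test with the scanner values, where 0.0261% of 23030 features were higher and 0.0261% lower. At an unadjusted p under 0.05, 251 members were higher and 55 lower (18.8% and 4.13%, beside 8.83% and 4.4% of all features), and with the authors' values 373 and 139 (28.0% and 10.4%, beside 15.4% and 11.5%). For members detected on 1 side only, the rule in part set the direction. Among the 1078 detected on both sides the shares were 17.8% and 3.62% with the scanner values. Of 1772 long regions in the fit 22.1% were higher and 2.93% lower, so the excess was not particular to short regions. By limma's test with the authors' values 4 members were higher and 1 lower, beside 0.122% and 0.0478% of all features. The 4 were the Klf14-Mkln1 and Zfat-Khdrbs3 regions and a pair outside microRNA gaps, whose probes follow.
Flg-Hrnr region (chr3:93156493-93156552, R strand): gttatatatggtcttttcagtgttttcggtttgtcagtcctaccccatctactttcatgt
Foxe3-Cmpk1 region (chr4:114631927-114631986, R strand): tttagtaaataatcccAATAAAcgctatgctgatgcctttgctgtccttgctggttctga

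In that pair both deletions were high. Region chr3:93156491-93157100 on the R strand lies between Flg and Hrnr, genes of skin barrier proteins. It stood at −3.16 and −3.71 in controls, −1.79, −1.80 and −2.05 with Drosha deleted and −1.97, −2.0 and −1.80 with Dicer deleted. The 6 deletion arrays lay above both controls and overlapped each other. In the authors' values it rose by 0.97 in Drosha-deleted cells (limma adjusted p = 0.0220) and was 0.88 higher in Dicer-deleted cells (limma adjusted p = 0.0919), and with the scanner values the differences were 1.55 (limma adjusted p = 0.0933) and 1.51 (limma adjusted p = 0.194). Region chr4:114627748-114632898 on the R strand lies between Foxe3, a transcription factor gene of the lens, and Cmpk1, a gene of nucleotide synthesis, and its probe holds AATAAA. It stood at −2.59 and −3.37 in controls, −1.47, −1.26 and −1.58 with Drosha deleted and −1.76, −1.58 and −1.34 with Dicer deleted. It rose by 1.01 in the authors' values in Drosha-deleted cells (limma adjusted p = 0.0465), where Dicer-deleted cells were 0.86 higher (limma adjusted p = 0.118). Each of these calls was made in 5 of 27 alternatives.

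The other probes of the pair gave other values. In the chromosome 3 region 2 further probes, both below the detection rule, differed from controls by 0.74 and −0.24 in Drosha-deleted cells. In the chromosome 4 region the 2 other detected probes differed by 0.15 and 0.26. The rise was thus seen with 1 probe in each.

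Dicer-deleted cells had no member past limma's threshold against controls in either source, beside 0.00868% of features higher and 0.0217% lower with the scanner values and 0.00434% and 0.013% with the authors' values. At an unadjusted p under 0.05 192 members were higher and 28 lower with the scanner values (14.4% and 2.1%, beside 6.64% and 3.46% of all features). With the authors' values they were 313 and 92 (23.5% and 6.9%, beside 12.8% and 9.13%). These counts also include members whose direction the rule in part set. Among the 1078 members detected on both sides the shares were 13.5% and 1.67% with the scanner values. Of 1772 long regions in the fit they were 16.1% and 1.92%. The 6 regions in microRNA gaps lay between −0.41 and 0.20 of the controls in these cells. The Dicer-deleted and Drosha-deleted comparisons share the control arrays.

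As a class, short regions had a higher median in both deletions than in controls, by an amount that depended on which control arrays were used. The median difference was 0.32 with Drosha deleted and 0.30 with Dicer deleted, against −0.04 and −0.02 over all features, and in the authors' values 0.19 and 0.16, against −0.0022 and −0.0018. With the scanner values 64.9% and 69.8% of members were positive. Members detected on 1 side only had to differ, with medians of 1.05 and 0.99 for those on the deletion arrays only and −0.27 and −0.26 for those on the controls only. The 1078 members detected on both sides had medians of 0.32 and 0.30. With the scanner values the medians over members were 0.01 and 0.02 without control replicate 3, and 0.67 and 0.66 without control replicate 1. In the authors' values the shift did not rest on control replicate 3 alone, because control replicate 2 also lay below the deletion arrays.

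Array by array, the median of a member's level less its mean over the 6 deletion arrays was −0.01 on control replicate 1, −0.61 on control replicate 2 and −0.67 on control replicate 3. In the authors' values these were −0.01, −0.31 and −0.23. The deletion arrays lay between −0.10 and 0.12 in the scanner values and between −0.04 and 0.05 in the authors' values. Long regions, of 10000 bases or more and read through a probe that met the same detection rule, gave −0.03, −0.66 and −0.82 on the 3 controls, while genes and other names gave −0.02, −1.07 and 0.17. Control replicate 1 thus stood with the deletion arrays, and the part of slide and array quality in the difference was not tested.

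**Figure D3:**
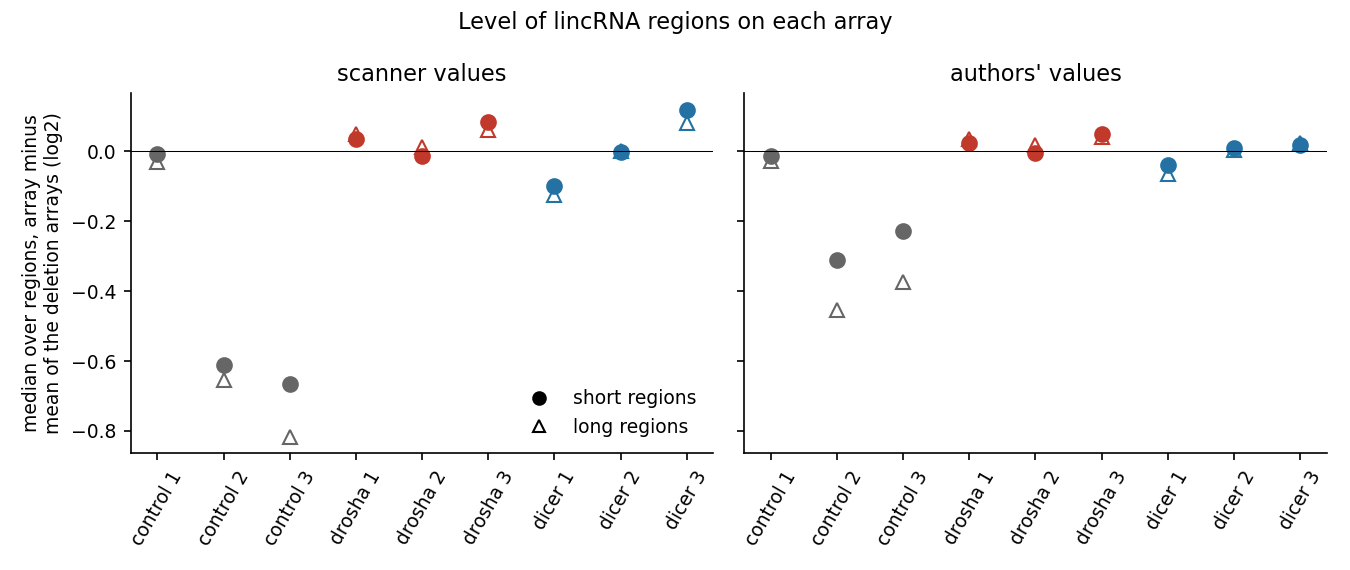
Median over lincRNA regions of the level on each array less the mean of the 6 deletion arrays (log2), with the scanner values (left) and the authors' values (right). Filled circles are the 1333 short regions and open triangles 1669 long regions whose probe met the same detection rule. Control replicate 1 lies at −0.01 for short regions in both panels, whereas control replicates 2 and 3 lie at −0.61 and −0.67 on the left.

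Most short regions lay more than 5 kb from the nearest probe of a protein-coding gene. Of the members, 679 lay on the F strand and 654 on the R strand, over 20 chromosomes, with 51 on the X. Their length ran from 85 to 9950 bases with a median of 1884, and 527 were under 1000 bases. The nearest probe of a protein-coding gene lay a median of 22.6 kb away, and 179 members were within 5 kb of one. The same detection rule kept 60.6% of short regions and 69.8% of regions of 10000 bases or more. Both sides of the rule were met by 1078 members, 142 were detected on the controls only and 113 on the deletion arrays only. Just outside the rule were 85 short regions above background on every array of 1 deletion group only, 63 with Drosha deleted and 22 with Dicer deleted. Of these 74.1% were on the Drosha-deleted side, beside 68.5% of 92 long regions and 71.6% of 754 features detected in this way, so the split is no result about short regions.

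At the upper end of the length rule, the members chr11:102878974-102888924, on both strands, and chr6:136440100-136450050 on the F strand were 9950 bases long. Their differences between the deletions, Drosha-deleted minus Dicer-deleted, were 0.26 on the R strand and −0.37 on the F strand of the first and −0.30 for the second. Just past the limit, chr1:138528250-138538250 with 10000 bases had −0.43 on the F and 0.41 on the R strand, and chr1:55298349-55308374 with 10025 bases had −0.14. Over all members, length showed no relation with that difference (Spearman's rho −0.01 across 1333 regions, as a description, since regions share arrays).

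The members' probes differed in sequence from those of genes. AATAAA, on the strand of the transcript, was found in 59 of 1333 member probes (4.43%), against 15.0% of 19846 probes of genes and other names and 3.89% of 1669 probes of long regions chosen by the members' rule. Read on the opposite strand the shares were 2.70%, 4.37% and 2.34%. The related hexamer ATTAAA was present in 2.48% of member probes, 5.09% of gene probes and 2.28% of long-region probes. These are descriptions of where probes lie, since the array's designers chose their position. The GC content of member probes had a median of 45%, with a range of 18.3% to 86.7%, against 43.3% for genes and other names.

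The brightest members differed little between the deletions. Of the 10 with the highest mean, the first, chr7:108209996-108216032 on the R strand between P2ry2 and Fchsd2, stood at 8.63 and 8.94 in controls, 8.65, 8.73 and 8.76 with Drosha deleted and 8.65, 8.75 and 8.82 with Dicer deleted. All 8 arrays were close together. The second, chr17:17481706-17482457 on the R strand, lay −0.20 from controls in Drosha-deleted cells and −0.16 in Dicer-deleted cells. Region chr17:39983902-39985688 on the F strand holds probes of Rn18s, the 18S ribosomal RNA, and had a mean of 6.30 ± 0.11 (SD, n = 2) on the control arrays. On the Drosha-deleted arrays it was 6.45 ± 0.40 (SD, n = 3), and 6.48 ± 0.37 (SD, n = 3) on the Dicer-deleted ones. Region chr3:96215885-96218756 on the R strand holds a probe named Terc, the RNA template of telomerase, and stood at 6.99 ± 0.10, 6.88 ± 0.07 and 7.05 ± 0.07 in the same order. Those levels are of the region's own probe, which lay −0.11 and 0.06 from controls with Drosha and with Dicer deleted. The Terc probe behaved otherwise, 0.99 and 0.97 above controls. The others were chr6:116123643-116124550, chr17:39982023-39983277, chr2:31714946-31716972 and chr7:112934153-112943178 on the F strand and chrX:138967807-138968413 and chr4:33364774-33364898 on the R strand. Between the deletions, differences of all 10 ran from −0.17 to 0.22. Against controls they ran from −0.20 to 0.45 with Drosha deleted and from −0.16 to 0.22 with Dicer deleted, and in the authors' values up to 0.79 and 0.49, both for chr2:31714946-31716972. None of the 10 passed limma's test in any comparison.

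Probes of one region were compared where 2 or more were detected. Of the members, 124 had 1 probe, 768 had 3 and the most had 10, and 656 had at least 2 detected probes. The 1168 further probes had differences between the deletions that correlated with those of the region's own probe at r = 0.65, across probes that share arrays and, in part, a transcript. In regions past 1 log2 unit, 18 of 18 further probes had the same sign as the chosen one. Those regions were picked for a large difference on the same arrays, and some of their probes share bases, so this is no independent support.

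**Figure D4:**
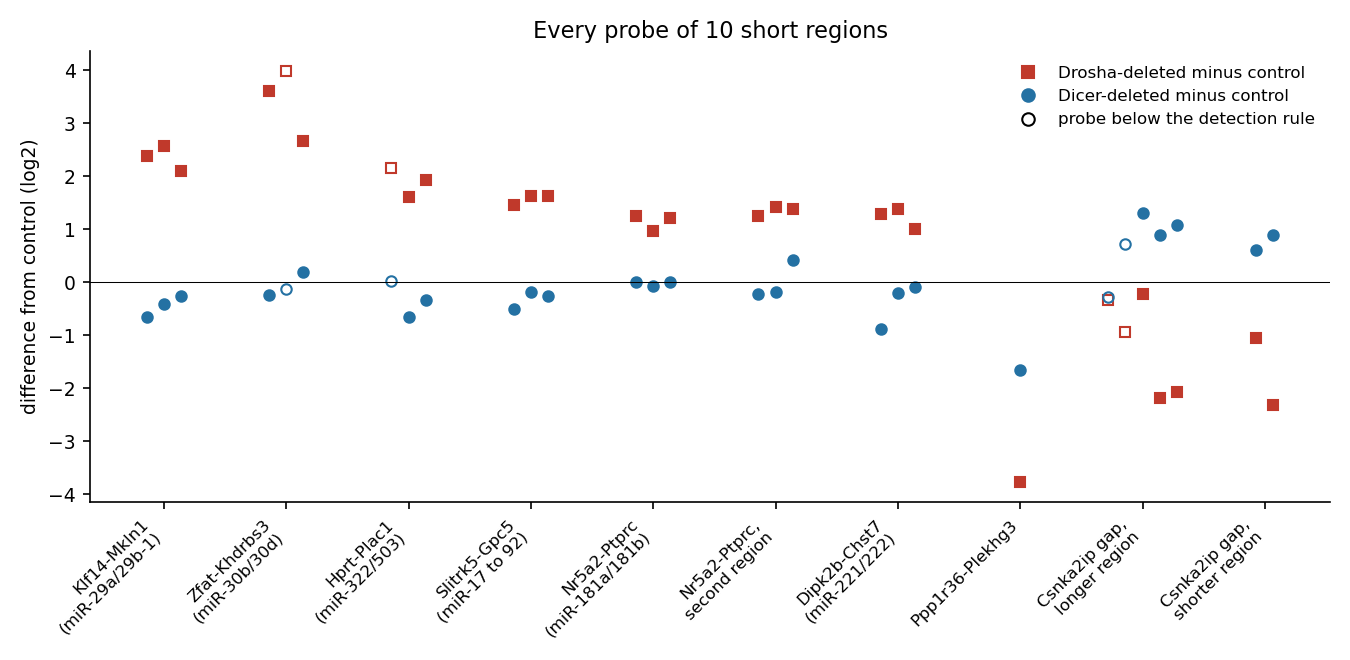
Difference from control (log2) of every probe in 10 short regions, with Drosha-deleted minus control as red squares and Dicer-deleted minus control as blue circles; open symbols are probes below the detection rule. In the 7 regions on the left the Drosha-deleted value of every probe lies above the Dicer-deleted one, and in the Ppp1r36-Plekhg3 region and both regions beside Csnka2ip it lies below.

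The lowest difference between the deletions belonged to a pair of overlapping regions on chromosome 16, and rested on 1 array. Region chr16:64758224-64765674 on the R strand, in the gap beside Csnka2ip, contains region chr16:64761963-64762369 of the same strand, so their probes are not independent. The 4 probes below show the shared stretches, and capitals mark AATAAA.
Longer chromosome 16 region (chr16:64762212-64762271, R strand): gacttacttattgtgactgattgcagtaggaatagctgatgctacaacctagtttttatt
Longer chromosome 16 region, second probe (chr16:64761942-64762001, R strand): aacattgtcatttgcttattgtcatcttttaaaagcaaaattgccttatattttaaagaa
Shorter chromosome 16 region (chr16:64761964-64762023, R strand): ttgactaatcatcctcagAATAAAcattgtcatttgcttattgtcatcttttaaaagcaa
Shorter chromosome 16 region, second probe (chr16:64762230-64762289, R strand): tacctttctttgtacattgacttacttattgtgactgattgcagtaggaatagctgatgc

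The longer region stood at −0.52 and −0.12 in controls, −0.72, −0.52 and −6.24 in Drosha-deleted cells and 0.70, 0.74 and 0.29 in Dicer-deleted cells. Drosha-deleted replicate 3 was far below the other 7 arrays. The shorter region stood at 0.10 and 0.51, then −0.12, −0.10 and −2.0, then 1.13, 0.95 and 0.66, with the same array lowest. The differences were −3.07 (SE 1.36) and −1.66 (SE 0.49), with limma adjusted p = 1.0 and 0.759. Without Drosha-deleted replicate 3 they were −1.20 and −1.03. The second probe of the shorter region, at −6.72 on that array, shares bases with the probe of the longer one, and the second probe of the longer region stood at −3.85 there against −1.97 and −2.15 on the other Drosha-deleted arrays. A further member, chr16:64758224-64765700 on the R strand, which starts at the same base as the longer region and is read by another probe, differed by −0.22. These regions were named after their values were seen.

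One more member past 1 unit upward, chr10:57550245-57550421 on the F strand beside Smpdl3a, was named after its values were seen. It stood at −2.03 and −3.25 in controls, −0.51, −2.07 and −1.87 in Drosha-deleted cells and −3.77, −2.39 and −1.91 in Dicer-deleted cells. The groups overlapped, and the difference between the deletions was 1.20 (SE 0.60) with a limma adjusted p = 1.0. None of the members past 1 unit that are not named here passed limma's test.

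Both strands of the same interval were members in 137 cases, of 235 such intervals on the array. The strands did not track each other. Their differences between the deletions correlated at r = 0.06 across 137 intervals, and the median absolute difference between strands was 0.280 log2 units. The brightest pair, chr7:108209996-108216032, differed by 0.16 on the F and −0.02 on the R strand, and chr17:35080914-35090009, between Neu1 and Hspa1a, by −0.56 and −0.65. The pair chr5:35975265-35982561 differed by −0.46 on the F and 0.09 on the R strand, chr11:6421951-6429173 by −0.47 and −0.03, chr6:4841700-4847400 by 0.02 and −0.14, and chr7:112934153-112943178 by 0.08 and 0.02.

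**Figure D5:**
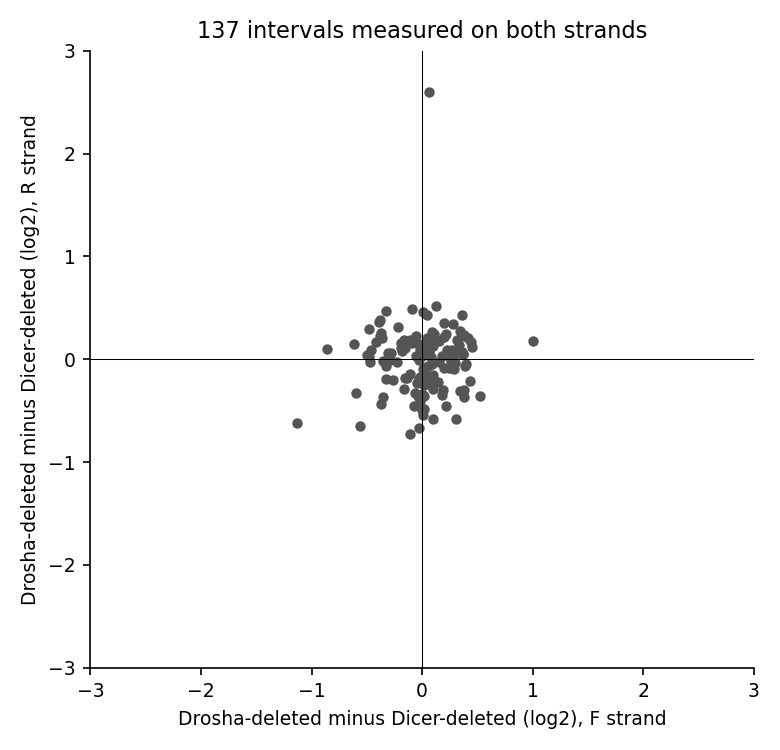
Difference between the deletions (log2, Drosha-deleted minus Dicer-deleted) on the F strand (horizontal) and the R strand (vertical) of 137 intervals measured on both strands. Most points lie near 0 with no common slope (r = 0.06).

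A region was also set beside a named feature whose probe lies inside it on the same strand. Of the members, 169 held such a probe and 71 held a named probe on the opposite strand. Across 131 measured pairs in 122 regions, the differences between the deletions correlated at r = 0.57, and those from controls at r = 0.48 with Drosha deleted and 0.38 with Dicer deleted. Much of the first value rested on the pairs with Mir17hg and C430049B03Rik: without them r was 0.31 across 129 pairs. The pairs share arrays, and where the probes overlap they share sequence. A promoter window of a RefSeq gene, on GRCm38.p6, matched a probe over 24 bases or more in 24 members on the same strand and 23 on the opposite strand. As a description of precision, the median SD over 3 arrays was 0.231 with Drosha deleted and 0.226 with Dicer deleted for members, against 0.195 and 0.175 for all features.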

How the data were processed

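RNA from 9 samples, 3 per group, was hybridised to 1-colour (Cy3) Agilent arrays. Per the file headers, the deposited intensity values are processed signals of Agilent Feature Extraction 10.7.3.1, background-subtracted and not normalized between arrays. The authors' deposited table holds log2 values; the submitters' processing notes name limma, while its other steps were not stated. Set against the scanner values it ran in the same direction, with column medians of 6.36 to 6.38.

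Scanner signals were taken as log2 less the array's 75th percentile. Control spots and outlier flags were left out, a gene or region was read through its brightest probe, and limma 3.58.1 (R 4.3.3) was fitted to group means over 8 arrays, with Benjamini-Hochberg adjustment over all features and a threshold of 0.05. The fit was tested on simulated data. Precision is limited by the small number of arrays.

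The members, gene lists and tests were chosen with earlier results of these data known. Regions were named by rule: calls in either source, the 10 brightest, at most 12 in microRNA gaps by difference, 3 on each side of the length limit and the 6 brightest strand pairs; exceptions are marked. Probe positions are on mm9, while gene order, microRNA strands and sequences are RefSeq's on GRCm38.p6. Alternatives covered arrays, source, background, normalization, filter, probe choice, block, slide and each array left out. A few genes and regions are not reported here.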

Additional observations from a re-analysis of the deposited data

How the results depend on the processing

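Over 26 or 27 alternatives each, the differences called in either source kept their direction, for regions and for Drosha, Dgcr8, Mir22hg and Aopep between the deletions; of 27, the call was made in 20 for Drosha, 18 for Aopep, 7 for Dgcr8 and 5 for Mir22hg. The count of called members between the deletions, 1, was 0 with all 9 arrays, quantile normalization, no filter on dim probes, the 7 arrays of one slide or any scanner array left out, 2 with normexp background, the authors' values without control replicate 2 or with control replicate 1 as the only control, 3 with the authors' values or the mean of probes, and 0 to 4 with an authors' column left out. For Drosha-deleted minus control, also 1, it was 0 with quantile normalization, probes above background on all 8 arrays or the authors' values without control replicate 2, 2 with normexp background, the mean of probes or the authors' values without control replicate 3, 3 with all 9 arrays, 4 with the 7 arrays and 5 with the authors' values, also with control replicate 1 alone; leaving out an authors' column of a deletion gave 0 to 10. For Dicer-deleted minus control, 0, it was 2 with the 7 arrays or control replicate 1 alone in the authors' values. Without control replicate 1 the counts against controls were 572 and 510, and 632 and 575 in the authors' values (lowest with any array left out, 0); the scanner control arm is then 1 sample assumed to vary like the other groups.

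The median over members less that over all features was 0.3588 for Drosha-deleted minus control and 0.317 for Dicer-deleted minus control. It became 0.0513 and 0.0407 with all 9 arrays, −0.0071 and −0.0123 with the 7 arrays, and 0.0055 and −0.0014 with control replicate 1 alone in the authors' values. In the authors' 9 columns it was 0.1916 and 0.1667, with normexp background 0.2048 and 0.1658 and with quantile normalization 0.1837 and 0.156. For Drosha-deleted cells it was 0.1275 and 0.1466 in the authors' values without control replicate 2 or 3. Leaving out an array gave −0.0071 to 0.7723 and −0.0123 to 0.7519, and in the authors' values 0.1818 to 0.2983 and 0.1503 to 0.2698. The causes were not tested.

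Correlations of deviations from group means were −0.249 to 0.103 in 7 same-numbered pairs and −0.103 to 0.249 in 14 others. In such small groups these deviations depend on each other, so they cannot decide whether replicate numbers pair the samples. With the replicate number as a block 0 members passed limma's test in each comparison. Alternatives on the authors' columns other than control replicate 2, and the place of flanking genes, were added after seeing the data.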
